A study of Homo sapiens with 6 samples.

Results

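H3K27me3, the trimethyl mark on lysine 27 of histone H3, was compared between H69M and H69 through the peaks called in 1 library of each line. All H3K27me3 peaks on chromosomes 1 to 22 and X were taken, which gave 59491 peaks, 37853 of H69M and 21638 of H69, out of 149848 peaks listed in the 4 antibody libraries of the series. H69M is a derivative of H69. H69, the established line NCI-H69, comes from small cell lung cancer, and both lines grew without any further treatment named in the labels. Chromatin was fixed with formaldehyde, sheared by sonication and precipitated with clone C36B1 from Cell Signaling, and the DNA was read from paired ends on a NextSeq500. How H69M was selected is described only by a pointer to earlier work, so the comparison describes 1 derived line against its parent and not a general change of state.

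Polycomb repressive complex 2 writes H3K27me3 through its catalytic subunit EZH2 or EZH1, and the mark is read by Polycomb repressive complex 1. In differentiated and malignant cells it lies over CpG islands of silent developmental regulators, such as homeobox, SOX, FOX, GATA and T-box genes, and it spreads from there into domains. Acetylation of the same lysine, H3K27ac, marks active promoters and enhancers and cannot share that lysine with the methyl mark.

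Neither list gives read counts, so the depth of both libraries is unknown, and a deeper or better enriched library yields more peaks at the same caller setting. The score beside each peak is the authors' own and its definition is not given in the sources used here. With 1 library a line there is no spread between cultures, no difference below has a replicate check, and intervals are exact (Clopper-Pearson) 95% binomial limits that cover counting error only and treat neighbouring peaks as independent. In a population of cells, a mark on fewer cells and a weaker mark on every cell cannot be told apart.

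The comparison of developmental genes turned on a small number of loci, and 6 of them are shown by the 250 bases upstream of the gene start in RefSeq (GRCh38.p14), in the gene's own direction, because the lines differed or matched there most plainly. TBX20 lies on the minus strand and the others on the plus strand. CpG dinucleotides, the substrate of CpG islands, are in capitals. GATA3 (chromosome 10) and FOXB1 (chromosome 15) had H3K27me3 peaks only in H69M. FOXC1 (chromosome 6) and TBX20 (chromosome 7) had them only in H69. GATA6 (chromosome 18) and EN2 (chromosome 7) had long domains in both lines.
GATA3: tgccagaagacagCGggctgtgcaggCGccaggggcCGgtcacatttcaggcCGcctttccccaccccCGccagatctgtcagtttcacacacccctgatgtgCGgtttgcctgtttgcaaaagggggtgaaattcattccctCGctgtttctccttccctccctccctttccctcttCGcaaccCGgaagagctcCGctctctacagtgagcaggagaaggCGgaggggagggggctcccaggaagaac
FOXB1: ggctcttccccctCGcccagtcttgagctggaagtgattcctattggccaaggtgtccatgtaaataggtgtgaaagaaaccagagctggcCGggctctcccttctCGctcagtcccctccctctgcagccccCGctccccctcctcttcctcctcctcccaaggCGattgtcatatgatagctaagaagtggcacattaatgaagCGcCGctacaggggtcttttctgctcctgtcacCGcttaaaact
FOXC1: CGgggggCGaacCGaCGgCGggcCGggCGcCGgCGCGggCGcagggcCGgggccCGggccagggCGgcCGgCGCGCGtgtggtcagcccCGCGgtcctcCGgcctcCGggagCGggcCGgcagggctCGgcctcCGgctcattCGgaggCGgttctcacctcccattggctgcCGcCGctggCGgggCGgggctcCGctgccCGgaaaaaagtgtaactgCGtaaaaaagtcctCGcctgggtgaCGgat
TBX20: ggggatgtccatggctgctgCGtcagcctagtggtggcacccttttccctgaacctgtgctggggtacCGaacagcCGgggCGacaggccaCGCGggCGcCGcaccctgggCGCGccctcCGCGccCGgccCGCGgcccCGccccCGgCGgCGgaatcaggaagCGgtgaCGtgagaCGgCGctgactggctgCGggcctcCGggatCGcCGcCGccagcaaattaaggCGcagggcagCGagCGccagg
GATA6: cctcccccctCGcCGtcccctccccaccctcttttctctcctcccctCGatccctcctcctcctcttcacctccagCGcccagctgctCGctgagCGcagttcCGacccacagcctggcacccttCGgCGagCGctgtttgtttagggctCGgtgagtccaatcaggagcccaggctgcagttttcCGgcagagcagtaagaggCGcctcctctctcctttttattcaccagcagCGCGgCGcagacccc
EN2: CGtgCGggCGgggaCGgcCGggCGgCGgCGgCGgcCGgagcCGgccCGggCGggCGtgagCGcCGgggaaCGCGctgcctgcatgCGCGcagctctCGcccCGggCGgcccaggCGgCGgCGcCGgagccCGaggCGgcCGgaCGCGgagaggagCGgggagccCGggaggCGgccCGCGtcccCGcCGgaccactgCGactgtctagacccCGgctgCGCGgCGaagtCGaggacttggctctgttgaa
The windows held 11 CpG for GATA3, 8 for FOXB1, 37 for FOXC1, 31 for TBX20, 16 for GATA6 and 45 for EN2. The letters CG read the same on both strands. Over the 27305 RefSeq promoters of this length the median was 11, and 93.6% held at least 1. EN2, FOXC1, TBX20 and GATA6 stood above this median, GATA3 at it and FOXB1 below it. The H69M-only pair held fewer CpG than the H69-only pair, but a pair of genes on each side allows no comparison. They were chosen after their peaks were seen, and their position within the hg19 peaks was not matched.

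H69M had more H3K27me3 peaks, and in the full lists its peaks were narrower at the median and wider at the upper end. They covered 7.96 Mb in H69M and 4.91 Mb in H69, a ratio of 1.62, whereas the number of peaks stood at a ratio of 1.75. The median width was 156 bp in H69M (interval 155 to 157) and 185 bp in H69 (184 to 185). With only the highest scoring H69M peaks, as many as H69 has, it was 192 bp in H69M and 185 bp in H69, the opposite order. Peaks under 120 bp made up 12.8% of the H69M list and 0.961% of the H69 list. The class of 150 to 200 bp held 26.6% of the H69M peaks and 52.7% of the H69 peaks, so the H69 list was gathered around 1 width while the H69M list was spread out. In the full lists the order turned round at the wide end. Peaks of 1000 bp or more numbered 373 in H69M (0.985%) and 132 in H69 (0.610%), and the widest peak measured 14522 bp in H69M and 5902 bp in H69.

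At a given score H69M peaks were the narrower ones in all 7 score classes. In the class from 50 to 60 the median width was 130 bp in H69M and 179 bp in H69. In the class from 150 to 300 it was 397 bp in H69M and 460 bp in H69, and at 1000 or more it was 2122 bp in H69M and 2597 bp in H69. The same rank gave the opposite order. The 100 highest scoring peaks had a median width of 2260 bp in H69M and 1265 bp in H69, and the 1000 highest 818 bp in H69M and 534 bp in H69. Which list has the wider peaks therefore depends on whether peaks are matched by score or by rank. Scores had similar medians, 65 in H69M and 66.9 in H69, but the upper tail was longer in H69M: the 90th percentile was 137 in H69M and 115 in H69, the 99th was 556 in H69M and 332 in H69, and 126 H69M peaks against 27 H69 peaks reached 1000.

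**Figure D1:**
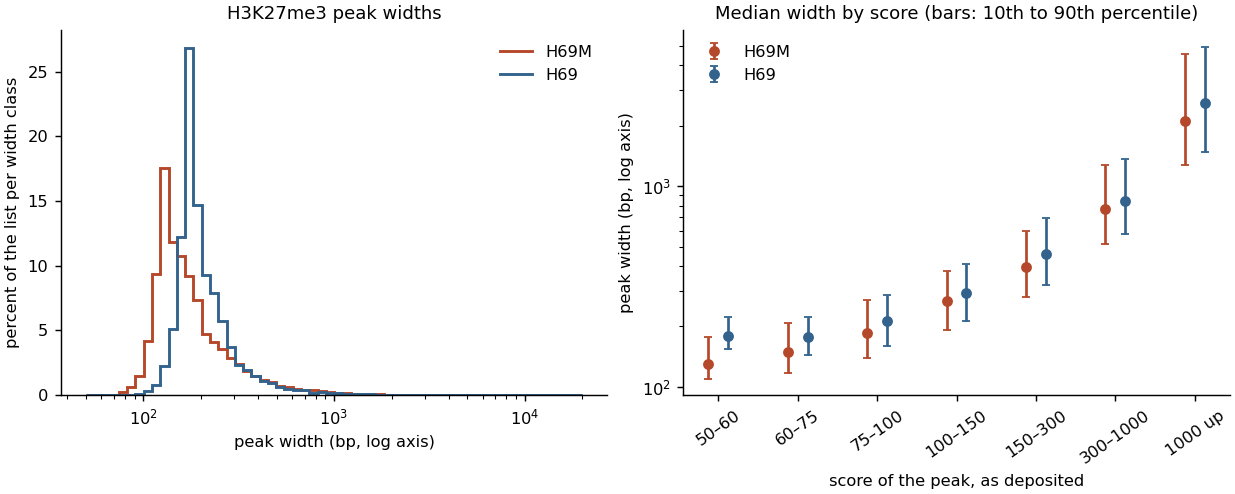
Left, share of each H3K27me3 list in classes of peak width (bp, log axis) for H69M and H69; right, median width in classes of the deposited score, with bars from the 10th to the 90th percentile of peaks. The H69M curve peaks at shorter widths (median 156 bp, against 185 bp in H69), and the H69M median lies below that of H69 in all 7 score classes.

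Strong H3K27me3 peaks were mostly found in both lines, and weak ones mostly in 1 of them. Among H69M peaks, 18.9% overlapped an H69 peak by at least 1 bp, and among H69 peaks 32.6% overlapped an H69M peak. From the lowest to the highest score class the overlapping share of H69M peaks ran through 9.67%, 13.1%, 19.4%, 33.05%, 53.2%, 81.9% and 92.9%. For H69 peaks it ran through 23.003%, 23.3%, 36.2%, 59.2%, 87.6%, 98.8% and 100%. At the same score an H69M peak was thus less often matched than an H69 peak, in every class. The H69M list is the longer one, so H69 peaks had more peaks to meet. The order of these shares therefore cannot be read as a difference between the lines. The 27 H69 peaks with a score of 1000 or more all had an H69M counterpart.

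Matching by rank changed the level, and the H69M share stayed the lower one. Of the 1000 highest scoring peaks, 83.3% in H69M (80.8 to 85.6) and 92.3% in H69 (90.5 to 93.9) overlapped any peak of the other line. When both lists were limited to their 1000 highest, the shares were 45.2% in H69M and 51.9% in H69, so many matched top peaks met a lower ranked peak of the other line. With as many H69M peaks as H69 has, which lifted the lowest H69M score to 61.45, the shares came to 25.8% in H69M and 26.8% in H69.

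**Figure D2:**
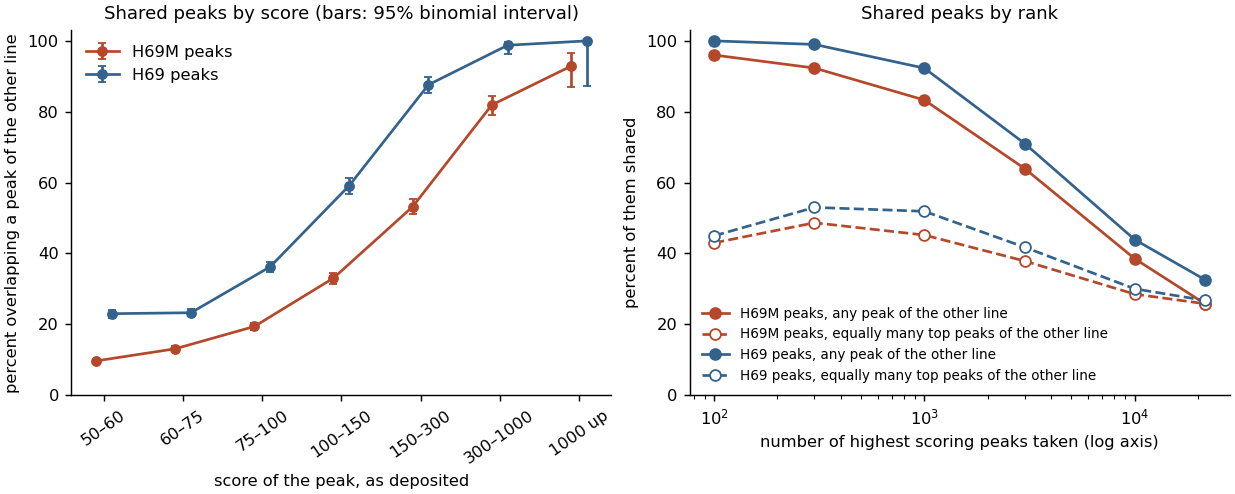
Left, percent of H3K27me3 peaks with at least 1 bp in common with the other line, by deposited score, with 95% binomial intervals; right, the same for the highest scoring peaks, against all peaks of the other line (filled) or against equally many of its top peaks (open). Sharing climbs with the score in both lines, to 92.9% in H69M and 100% in H69.

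Many peaks without an overlap had a neighbour. Of 30681 H69M peaks that met no H69 peak, 15743 (51.3%) lay within 5000 bp of one, and of 14587 H69 peaks that met no H69M peak, 8147 (55.9%) did. Shared peaks were wider than unshared ones in both lists, with a median of 218 bp against 149 bp in H69M and of 223 bp against 181 bp in H69. Peaks rarely merged between the lists: 912 of 7172 shared H69M peaks (12.7%) overlapped 2 or more H69 peaks, and 1131 of 7051 shared H69 peaks (16.04%) overlapped 2 or more H69M peaks.

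The 4456 pairs in which 1 peak of each line overlaps only the other allow a comparison at the same site. The median score was 81.1 in H69M and 72.8 in H69, and the H69M score was the higher one in 58.4% of pairs (median log2 ratio 0.14). The median width was 202 bp in H69M and 205 bp in H69, with the H69M peak wider in 46.6%. Among weak pairs, with a geometric mean score from 50 to 75, H69M was higher in 42.6% and wider in 26.2%. Among 376 strong pairs, from 150 to 300, H69M was higher in 84.0% (median log2 ratio 1.06) and wider in 75.5%. Scores of the 2 lists may not share a scale, so these shares describe the lists. Across all pairs the scores had a Spearman rho of 0.250, a value that the common lower limit of the score also shapes.

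H69M peaks were far more clustered. The median distance from a peak to its nearest neighbour in the same list was 654 bp in H69M and 1818 bp in H69, and 56.9% of H69M peaks against 40.2% of H69 peaks had a neighbour within 1000 bp. Equal numbers of peaks moved the H69M distance little, to 723 bp. Peaks were then joined over gaps of up to 5000 bp, and a chain of 5 or more was called a domain. H69M had 1782 domains and H69 had 732, and they held 48.97% of the H69M peaks and 30.05% of the H69 peaks. Equal numbers of peaks left 979 domains in H69M against the 732 of H69, with 42% of H69M peaks in them. The median domain was not longer in H69M, with a span of 8.81 kb in H69M and 9.44 kb in H69. Domains of 20 or more peaks numbered 168 in H69M and 38 in H69, or 58 in H69M against the 38 of H69 under equal numbers.

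Most H69 domains lay where H69M had a domain too, while most H69M domains overlapped no H69 domain. With 1782 domains against 732, unequal shares follow largely from the numbers. The overlap of domains was not run under equal numbers of peaks. Of the 732 H69 domains, 536 (73.2%) overlapped an H69M domain, 158 (21.6%) held H69M peaks but no domain, and 38 (5.19%) held no H69M peak. Of the 1782 H69M domains, 523 (29.3%) overlapped an H69 domain, 931 (52.2%) held H69 peaks only, and 328 (18.4%) held none. Of these 328, 69 lay within 2 Mb of the longest gap between peaks on that chromosome, a peak-free stretch which for most chromosomes spans the centromere, and none of the 38 H69 domains did. The largest group of H69M domains was thus made of regions where H69 had fewer than 5 peaks in a chain.

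When the peaks of both lines were joined together, 2806 domains resulted, of which 2540 held peaks of both lines, 244 only of H69M and 22 only of H69. The length under peaks was at least 2-fold longer in H69M in 1227 (43.7%) and at least 2-fold shorter in 242 (8.62%), and it lay within 2-fold in 1337. The median log2 ratio was 0.65. Among 152 joined domains within 2 Mb of a peak-free stretch, 133 were at least 2-fold longer in H69M. In the 1371 joined domains with 3 or more peaks of each line, H69M had 15130 peaks over 3828 kb and H69 had 9675 peaks over 2502 kb, and the mean width was 253 bp in H69M and 259 bp in H69. H69M had more peaks in 960 of these domains and H69 in 214, while the mean width was greater in H69M in 501 and in H69 in 870. Number and width went different ways in single domains, as in the longest ones described next.

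**Figure D3:**
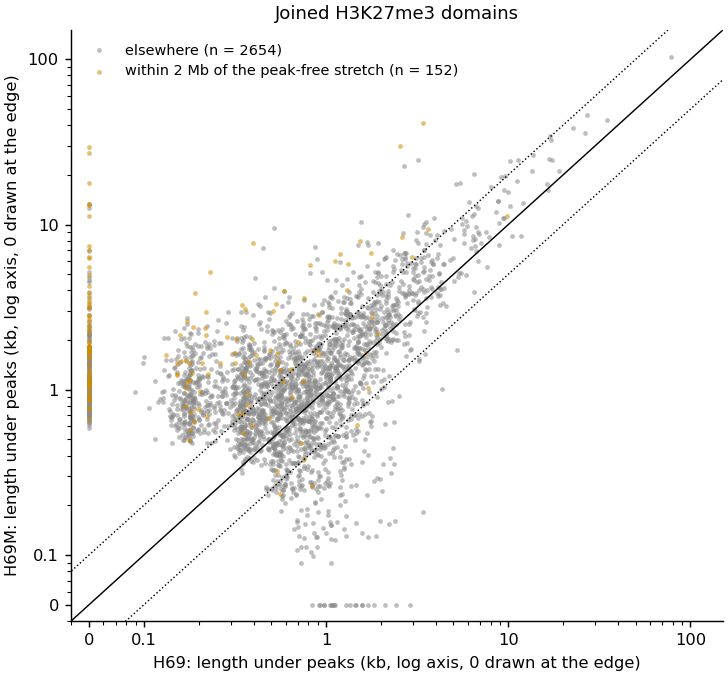
Each point is 1 of 2806 domains joined from the peaks of both lines, with the length under H3K27me3 peaks in H69M (vertical) against H69 (horizontal), both in kb on log axes with 0 drawn at the edge. Solid line, equal length; dotted lines, 2-fold; the domains within 2 Mb of a peak-free stretch (yellow) lie mostly above the upper dotted line, 133 of 152.

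Of the 10 H69M domains with the most length under peaks, 7 were also long in H69 and lay away from the peak-free stretches. The other 3 lay within 2 Mb of such a stretch and were found wholly or mostly in H69M. The longest, chr8:86726450-86840983, falls in the REXO1L1P array of repeated gene copies and was covered over 103.8 kb by 45 peaks in H69M and over 77.6 kb by 68 peaks in H69. The 10 highest scoring H69M peaks all lay there or in the neighbouring block chr8:86554854-86576378, and 9 of the 10 highest in H69 did. All 10 H69M peaks had the same score of 3100, the highest of that list, and ties were ordered by width. How reads with many matching sites, as in such repeats, were placed is not known from the sources used here. The second, chr19:1668675-1806948, holds ONECUT3, a cut-homeobox transcription factor gene, and was covered over 46.3 kb by 184 peaks in H69M and over 26.6 kb by 106 peaks in H69. The third, chr19:8840052-8903428, was covered over 43.2 kb by 39 peaks in H69M and over 34.3 kb by 44 peaks in H69. The domain at chr1:228744087-228784300, over the ribosomal RNA genes of the RNA5S1 array, was covered over 38.3 kb by 15 peaks in H69M and over 22.6 kb by 21 peaks in H69. It also carried H3K27ac, over 7.27 kb in H69M and 13.35 kb in H69. At chr1:2575980-2634211, in the region of MMEL1 and TTC34, the mark covered 36.05 kb in H69M and 26.4 kb in H69. The primate-specific SNAR noncoding RNA arrays gave a pair of domains, chr19:48389489-48460978 with 34.5 kb in H69M and 16.8 kb in H69, and chr19:50588111-50643011 with 32.7 kb in H69M and 17.2 kb in H69. The domain chr18:44542054-44561993 inside KATNAL2, a gene for a katanin-like microtubule severing protein, was nearly equal, with 16.2 kb in H69M and 16.4 kb in H69. It was among the 10 longest of H69 but not of H69M. The remaining peak of the 10 highest in H69, at a score of 3071, lay in it. The 3 domains beside peak-free stretches were chr4:49272286-49337115, with 41.1 kb in H69M and 3.42 kb in H69, chr2:91751043-91808907, with 29.8 kb in H69M and 2.56 kb in H69, and chr8:47085959-47174724, with 147 peaks over 29.5 kb in H69M and none in H69.

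The 6 families of developmental transcription factors carried H3K27me3 more often than 60 kb of the genome at large. Of 161 genes with a 60 kb window, which overlap into 154 separate stretches, 69 had peaks in both lines (42.9%), 21 in H69M only (13.04%), 13 in H69 only (8.07%) and 58 in neither. Of all 60 kb tiles of the genome, 8.95% had peaks in both lines, 7.05% in H69M only, 4.27% in H69 only and 20.3% in either. The windows centre on genes and hold several members of some clusters, so the tiles are background and not a match. Over the 154 stretches, with overlapping windows counted once, the length under peaks came to 257 kb in H69M and 181 kb in H69, a ratio of 1.42, below the 1.62 of all peaks. Under equal numbers of peaks the ratio was 1.20 over the stretches and 1.16 over the lists, so this order depends on the list length. The length was longer in H69M at 76 genes and longer in H69 at 27, or at 56 and 36 under equal numbers of peaks. The same count was not made over all 60 kb tiles, so it cannot be read as particular to these genes.

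By family, homeobox genes outside the HOX clusters (77 placed) had peaks in both lines at 35, in H69M only at 8 and in H69 only at 5, and, with overlapping windows counted once, 130.2 kb under peaks in H69M and 91.2 kb in H69. GATA and T-box genes (21) had 10, 3 and 3 in the same order, with 38.96 kb in H69M and 28.5 kb in H69. SOX genes (15) had 5, 3 and 1, with 21.4 kb in H69M and 13.5 kb in H69, the highest ratio of the 6 families at 1.58. FOX genes (21) had 8, 4 and 1, with 30.2 kb in H69M and 21.8 kb in H69. Basic helix-loop-helix genes (18) had 10, 1 and 2, with 31.03 kb in H69M and 22.3 kb in H69. PAX genes (9) carried the least, with peaks in both lines only at PAX1, and 4.96 kb in H69M and 3.92 kb in H69 in all.

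Among genes marked in both lines, the homeobox gene EN2, a regulator of the midbrain and hindbrain, had 32 peaks over 11.5 kb in H69M and 27 peaks over 9.83 kb in H69. GATA6, a regulator of endoderm and heart, had 25 peaks over 10.997 kb in H69M, the best at a score of 2315, and 18 peaks over 9.71 kb in H69, the best at 1576. LMX1B, which patterns the dorsal limb and midbrain, had 10.013 kb in H69M and 9.22 kb in H69. These 3 loci differed by less than 1.2-fold, under the ratio of the whole lists. At other loci the lines stood further apart. GATA4, a cardiac and endodermal regulator, was covered over 13.4 kb in H69M and 6.99 kb in H69. LHX4, a LIM homeobox gene of pituitary and motor neuron development, was covered over 10.8 kb in H69M and 3.75 kb in H69. SOX8, a neural crest and Sertoli cell factor, was covered over 10.7 kb in H69M and 4.68 kb in H69. CDX2, the intestinal homeobox gene, had 20 peaks over 4.36 kb in H69M and 6 over 1.29 kb in H69, a ratio of 3.38.

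In the other direction, the widest difference at a gene marked in both lines was at SOX1, a neural progenitor factor, with 1 peak over 0.181 kb in H69M and 9 peaks over 3.40 kb in H69, the best at a score of 338. H3K27ac in the same window covered 12.5 kb in H69M and 4.12 kb in H69. TBX18, a T-box gene of epicardium and sinus node, had 3.36 kb in H69M and 4.40 kb in H69, and PITX1, the hindlimb homeobox gene, had 1.99 kb in H69M and 2.54 kb in H69. FOXF2, MYOD1 and ASCL2 were close to equal, with 7.03, 4.57 and 3.36 kb in H69M and 7.38, 4.56 and 3.36 kb in H69.

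Genes with H3K27me3 peaks in H69M alone were led by FOXB1, a forkhead gene of the developing diencephalon, with 13 peaks over 3.06 kb and a best score of 368 in H69M and none in H69. In H69 the FOXB1 window instead carried H3K27ac, over 5.35 kb, and in H69M it carried none. SOX21, a SOX gene of neuronal differentiation, had 11 peaks over 2.56 kb in H69M and none in H69. GATA3, a T-cell and sympathoadrenal regulator, had 9 peaks over 2.18 kb and a best score of 552 in H69M and none in H69. At both genes neither line had H3K27ac. The other 18 of the 21 genes were weaker: 15 of the 21 had no peak with a score of 100, and 10 of the 21 kept a peak in the H69M list cut to equal numbers.

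Genes with H3K27me3 peaks in H69 alone were led by FOXC1, a forkhead gene of mesoderm and eye development, with none in H69M and 10 peaks over 2.61 kb and a best score of 273 in H69. H3K27ac there covered 8.07 kb in H69M and 2.15 kb in H69. TBX20, a cardiac T-box gene, had none in H69M and 5 peaks over 1.28 kb in H69. HAND1, a cardiac and extraembryonic bHLH gene, had none in H69M and 4 peaks over 1.05 kb in H69, the best at 246, with H3K27ac over 6.37 kb in H69M and 6.99 kb in H69. POU3F2, a neural POU factor, had none in H69M and 3 peaks over 0.767 kb in H69, while H3K27ac covered 14.1 kb in H69M and 3.82 kb in H69. NEUROG1, a proneural bHLH gene, had none in H69M and 3 weak peaks over 0.637 kb in H69, and H3K27ac covered 8.06 kb in H69M against none in H69. Of the 13 genes, 8 had no peak with a score of 100 in H69. Most H69 peaks under that score overlapped no H69M peak, but most had one within 5000 bp. The shares within 5000 bp were 65.5% in the class from 50 to 60, 64.5% from 60 to 75 and 73.6% from 75 to 100.

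**Figure D4:**
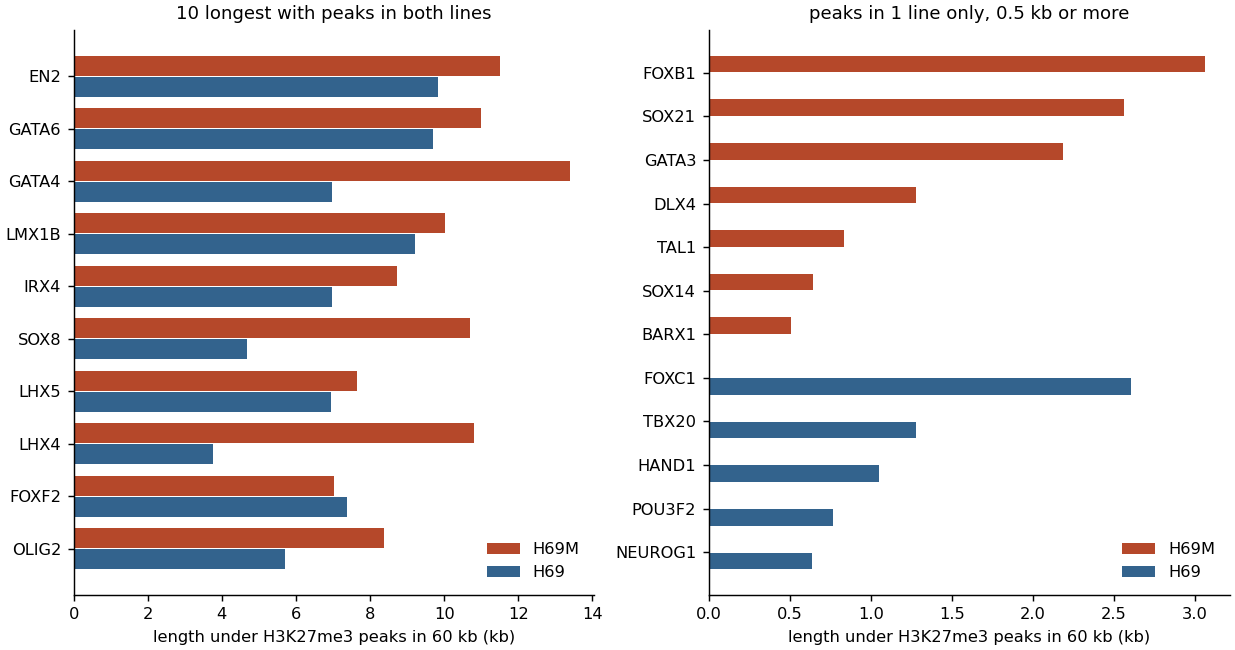
Length under H3K27me3 peaks (kb) in 60 kb around genes of 6 transcription factor families, H69M above H69; left, the 10 genes with the longest summed length among those with peaks in both lines; right, genes with peaks in 1 line only and at least 0.5 kb. Lengths are 11.5 kb in H69M and 9.83 kb in H69 at EN2, and 3.06 kb at FOXB1 in H69M and 2.61 kb at FOXC1 in H69 are the longest found in 1 line only.

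H3K27ac, which played no part in sorting these genes into the 4 states, was set beside those states. It was present in either line at 13 of the 21 H69M-only genes (61.9%, against 36.6% of all 60 kb tiles in that state) and covered more in H69M at 4 and more in H69 at 9. It was present at 11 of the 13 H69-only genes (84.6%, against 59.4% of tiles) and covered more in H69M at 9 and more in H69 at 2. At the 69 genes with H3K27me3 in both lines H3K27ac was found at 35 (50.7%, against 47.4% of tiles), longer in H69M at 21 and in H69 at 14. At the 58 genes with none it was found at 56 (96.6%, against 43.4% of tiles), longer in H69M at 41 and in H69 at 15. Among tiles with H3K27ac the mark was longer in H69M in 64.6% of those with H3K27me3 only in H69M, in 84.3% of those with it only in H69, in 73.4% of those with it in both and in 80.6% of those with none. The 9 of 11 (81.8%) at the H69-only genes were close to that background, and the 4 of 13 (30.8%) at the H69M-only genes lay below it. These are counts over few genes, and no test was run on them.

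At the marker genes used to check the label, the neuroendocrine genes NEUROD1, INSM1, CHGA, SYP, NCAM1 and DLL3 carried H3K27ac in all 6 windows of both lines, and it was longer in H69M at each, as at INSM1 with 20.5 kb in H69M and 14.15 kb in H69. No H3K27me3 peak was listed at 5 of them in either line, and SYP, the synaptophysin gene, had 2 weak peaks over 0.201 kb in H69M and none in H69. Of 7 genes of non-neuroendocrine or mesenchymal cells, AXL, a receptor tyrosine kinase gene, had 16 H3K27me3 peaks over 2.50 kb in H69M and 23 over 5.39 kb in H69, with H3K27ac over 8.19 kb in H69M and none in H69. YAP1, the Hippo pathway coactivator gene, had 0.892 kb of H3K27me3 in H69M and 1.25 kb in H69, with H3K27ac over 4.10 kb in H69M and none in H69. VIM, the vimentin gene, had 7 H3K27me3 peaks over 1.62 kb in H69M and 1 peak over 0.187 kb in H69, and H3K27ac covered 11.3 kb in H69M and 0.489 kb in H69. REST, a repressor of neuronal genes, had 4 weak H3K27me3 peaks over 0.537 kb in H69M and 0 in H69, with H3K27ac over 1.66 kb in H69M and none in H69. ZEB1, SNAI2 and CD44 had no H3K27me3 peak in either line. Their H3K27ac covered 3.30, 5.71 and 9.04 kb in H69M and 1.40, 4.80 and 2.41 kb in H69. H3K27ac was thus longer in H69M at all 7 genes, as it was at the 6 neuroendocrine genes and in 79.2% of the 22246 tiles of 60 kb that held H3K27ac. H3K27me3 was shorter in H69M at 2 of the 7 genes, longer at 2 and not listed in either line at 3.

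The 38 domains found in H69 alone had a median span of 8.18 kb, and the 10 with the most length under peaks are given here. The longest, chr17:46704810-46726036, lies between HOXB9 and HOXB13, posterior homeobox genes, with none in H69M and 13 peaks over 2.88 kb in H69, and with H3K27ac over 2.36 kb in H69M and 2.06 kb in H69. The second, chr6:1604763-1615141, is the FOXC1 locus described above. The third, chr6:108485839-108491457 at NR2E1, a nuclear receptor gene of neural stem cells, had 9 peaks over 2.12 kb in H69, with no H3K27ac peak in H69M and H3K27ac over 1.46 kb in H69. At chr18:33540707-33548664, 9 peaks covered 1.99 kb in H69, with no H3K27ac in either line. At chr17:47028917-47046519, by the incretin gene GIP, 9 peaks covered 1.88 kb in H69, and H3K27ac covered 0.92 kb in H69M and none in H69. At chr6:30121901-30132816, over the tripartite motif genes TRIM10 and TRIM15 of the MHC, 8 peaks covered 1.82 kb in H69, and H3K27ac covered 3.17 kb in H69M and none in H69. At chr6:2970165-2975016, over the serine protease inhibitor gene SERPINB6, 7 peaks covered 1.70 kb in H69, and H3K27ac covered 1.91 kb in H69M and none in H69. At chr19:55585523-55598026, by EPS8L1, a gene related to the EGF receptor substrate EPS8, 9 peaks covered 1.58 kb in H69, and H3K27ac covered 1.79 kb in H69M and 1.80 kb in H69. At chr19:10401592-10407291, by the neuronal adhesion gene ICAM5, 8 peaks covered 1.57 kb in H69, with no H3K27ac in either line. At chr19:5338264-5341663 within PTPRS, a receptor phosphatase gene, 5 peaks covered 1.45 kb in H69, the best at 239, and H3K27ac covered 2.98 kb in H69M and 1.29 kb in H69. Of all 38 such domains, 14 (36.8%, 21.8 to 54.01) held H3K27ac of H69M and 7 (18.4%, 7.74 to 34.3) held H3K27ac of H69. Over all 732 H69 domains the order was the same, with 123 (16.8%) holding H3K27ac of H69M and 52 (7.10%) that of H69.

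Domains found in H69M alone, away from the peak-free stretches, numbered 259 and had the opposite order, with 20 (7.72%, 4.78 to 11.7) holding H3K27ac of H69M and 44 (16.99%, 12.6 to 22.1) holding H3K27ac of H69. Among them 5 held only H3K27ac of H69M and 29 only that of H69. Among the 38 H69 domains 8 held only H3K27ac of H69M and 1 only that of H69. Over all domains these counts were 108 and 85 in the 1782 of H69M, and 89 and 18 in the 732 of H69. The order at the 38 was thus also that of all H69 domains. Domains common to both lines, as listed in H69M, held H3K27ac of H69M in 14.7% and of H69 in 8.03%. The longest H69M-only domain of this kind, chr19:37759902-37795376, had 26 peaks over 13.3 kb in H69M and none in H69. The next, chr7:63209879-63226400, had 31 peaks over 12.6 kb with a best score of 741, and the one at chr2:133012157-133033335 had 14 peaks over 6.93 kb. At chr17:41975601-41987574, 16 H69M peaks over 4.50 kb lay where H69 had H3K27ac over 2.22 kb and H69M had none. Near the stretches, chr5:49406623-49441615 had 19 peaks over 27.2 kb in H69M and none in H69.

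Along the chromosomes, the length under peaks was longer in H69M on 22 of 23 and domains were more numerous in H69M on all 23. Under equal numbers of peaks the length was longer on 14 and shorter on 9, among them chromosomes 5, 6, 7, 11, 12 and 19. Chromosome 19 was the most covered in both lines, with 1023 kb in H69M and 803 kb in H69, or 12.9% of the H69M length and 16.4% of the H69 length. Chromosome 4 had 215 kb in H69M and 61.6 kb in H69, and its ratio of 3.49 stayed at 2.73 under equal numbers. The number of copies of each chromosome in the lines was not measured here, so its part in these ratios was not tested.

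**Figure D5:**
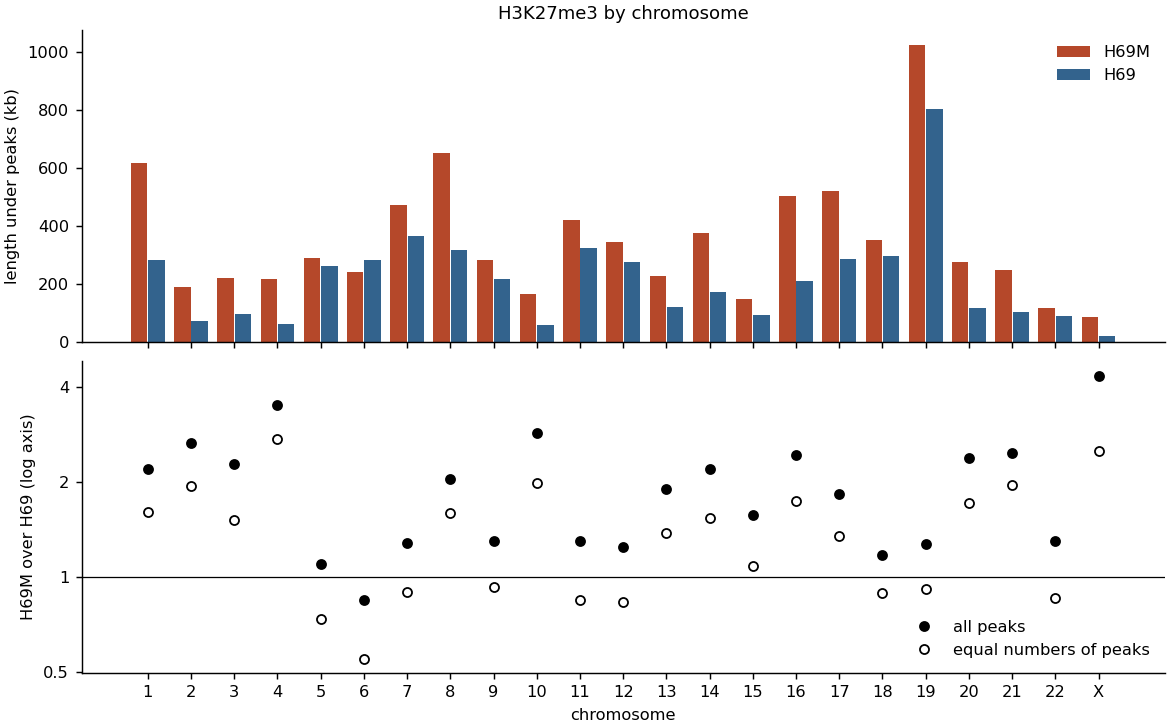
Top, length under H3K27me3 peaks (kb) on each chromosome, H69M left of H69; bottom, the ratio of H69M over H69 on a log axis with all peaks (filled) and with equal numbers of peaks (open). With all peaks chromosome 6 alone lies below 1, and with equal numbers 9 chromosomes do.

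Regions within 2 Mb of these peak-free stretches held 2950 H69M peaks (7.79%) and 445 H69 peaks (2.06%), and only 7.08% of these H69M peaks overlapped an H69 peak, against 47.9% of these H69 peaks that overlapped an H69M peak. Regions within 5 Mb of the outermost peak of a chromosome held 27.9% of the H69M peaks and 25.9% of the H69 peaks. In 1978 bins of 1 Mb with a peak in either line, the covered length was at least 2-fold longer in H69M in 837 (42.3%) and at least 2-fold shorter in 432 (21.8%). Across all 3050 bins, which share libraries and gene density and are not independent, the covered lengths had a Spearman rho of 0.787. This base includes the bins without a peak in either line, which tie at the bottom of both rankings and can raise rho. No rho was computed for the 1978 bins with a peak alone, so likeness among them was not tested. A share of 50% of the covered length lay in 124 bins in H69M and in 137 bins in H69.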

How the data were processed

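H3K27me3 chromatin immunoprecipitation followed by sequencing was available as 1 peak list of H69M and 1 of H69, with 1 H3K27ac list of each line for comparison. Input libraries were not analysed here. Bowtie2, SAMtools 0.1.19 and genome build hg19 are named per the submitters' processing notes. The deposited lists give chromosome, start, end, a name with the word MACS and, in the fifth column, a score. For the MACS version, its settings, any use of the input and the handling of reads with several matching sites, values were not given in the sources used here. Each group holds 1 sample, so no p-value was computed, and read depth is unknown.

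Peaks on chromosomes 1 to 22 and X were compared with Python 3.11.15, pandas 2.3.3, numpy 2.4.6 and scipy 1.17.1. Sharing required 1 bp in common with the other list. Equal numbers of peaks means the highest scoring H69M peaks, as many as H69 has. Domains were chains of 5 or more peaks with gaps of up to 5000 bp. The overlap and joining steps were tested on simulated data. Named domains and peaks are the 10 longest covered or highest scoring of each line, in all and without a peak of the other line. From these only some are printed.

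The planned count of promoter states was not run, since the gene table used here is of GRCh38.p14 and not hg19. Instead, genes were placed by general knowledge of hg19 in windows of 60 kb, an approximate placing made after the lists had been seen. All 174 windows lie on the chromosome that the RefSeq table (GRCh38.p14) gives for the gene, and 150 of 150 neighbouring pairs stand in the same order there. Of 208 genes listed in the 6 families 161 were placed, and 47 were not used here. Names given to domains rest on the same knowledge. The members and lists were chosen with earlier results of these data known. Genes named in the text are the longest covered or largest contrasts of their state and were chosen after their values were seen.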

Additional observations from a re-analysis of the deposited data

Results flagged for a closer look

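Unplaced contigs, pieces of the assembly with no chromosome position, entered none of the comparisons above, and both H3K27me3 lists held peaks on them. There were 607 such peaks in H69M (1.57% of the list) and 65 in H69 (0.299%). The H3K27ac lists had 59 on these contigs in H69M and 26 in H69. The cause of the H69M surplus was not tested.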

How the results depend on the processing

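No paired analysis was possible because each group holds 1 sample, and for the same reason no replicate could be left out. The alternatives for promoter states were not run, as no hg19 annotation was used here. Sharing was 18.9% of H69M peaks and 32.6% of H69 peaks. It was 25.8% in H69M and 26.8% in H69 under equal numbers of peaks, 23.5% in H69M and 53.5% in H69 at a score of 100 or more, and 19.9% in H69M and 32.3% in H69 away from the peak-free stretches. It was 12.6% in H69M and 23.99% in H69 when 50% of the peak had to be covered, 60.5% in H69M and 70.2% in H69 when a peak within 5000 bp sufficed, and 45.2% in H69M and 51.9% in H69 between the 1000 highest scoring peaks, an alternative chosen after seeing the data. The H69M share stayed the lower one in each. In all but the equal lists the H69 peaks had the longer list to meet, so this order was not a separate result. The covered length ratio of 1.62 became 1.16 under equal numbers, 2.35 at a score of 100 or more and 1.49 away from the stretches. Median width was 192 bp in H69M and 185 bp in H69 under equal numbers, which turns the order round, and 329 bp in H69M and 344 bp in H69 at a score of 100 or more. Domains numbered 979 in H69M and 732 in H69 under equal numbers, 214 in H69M and 60 in H69 at a score of 100 or more, and 3635 in H69M and 1932 in H69 with 3 or more peaks. With gaps of up to 2000 bp they numbered 1461 in H69M and 479 in H69. H69M kept more domains in every setting run. Windows of 20 kb around the 161 genes, also chosen after seeing the data, gave 61 genes with peaks in both lines, 17 in H69M only and 10 in H69 only. The cause of these shifts was not tested.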
